A study of Homo sapiens with 10 samples.

Results

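The heat shock proteins and DNAJ co-chaperones were described in Panc1 cells, an established line from a human pancreatic carcinoma, after forced expression of the transcription factor KLF11 or of 3 of its mutants. The members were transcript clusters, the units to which the array assigns genes, whose single gene symbol belonged to the DNAJA, DNAJB, DNAJC, HSPA, HSPB, HSP90, HSPH, HSPD or HSPE families or was HSF1, HSF2, BAG3 or HYOU1. Pseudogenes and HSPBP1 were left out, and the brightest cluster stood for a gene with several. This gave 70 genes of the 18377 that had a cluster with 1 symbol. Another 10 clusters carried a family symbol together with other symbols and were left out, and HSF2, HSPA1A and HSPA1B were not analysed here.

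Expression was measured on Affymetrix Human Gene 1.0 ST arrays 48 h after transduction with recombinant adenovirus at a multiplicity of infection of 150. There were 5 groups of 2 arrays each. The A347S mutant carries a substitution in the proline-rich domain, designed to uncouple KLF11 from WD40 proteins. The Δ486 mutant, labelled KLF11-486, is a deletion designed to uncouple it from HP1 and histone methyltransferases. The EAPP mutation lies near the N-terminus and was designed to uncouple it from Sin3 and histone deacetylases. The other groups received wild type KLF11 or empty vector (EV). All inserts were epitope-tagged with histidines and Xpress and were carried by the adenoviral vector that also served, without insert, as EV. Every group is therefore transduced cells of a single line, and the 4 construct groups carry a KLF11 insert. By the methods, RNA was pooled from triplicate cultures and hybridized in technical duplicate, although the sample titles number the arrays as biological replicates. The p-values then measure only the spread between arrays, and the small number of arrays limits the precision. The values are log2 expression after Robust Multiarray Analysis by the authors. Differences were tested with limma over 20961 clusters with a symbol, and a cluster was called at a Benjamini-Hochberg adjusted p under 0.05 together with a fold change of at least 1.5, which is 0.58 on the log2 scale.

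Heat shock proteins are molecular chaperones that bind unfolded segments of other proteins, prevent their aggregation and help them fold, move between compartments or be degraded. HSP70 proteins work in cycles of ATP hydrolysis. DNAJ proteins, which share the J domain, deliver clients and stimulate hydrolysis, and nucleotide exchange factors such as the HSP110 proteins and HYOU1 release the client. HSP90 proteins act later in the maturation of kinases and receptors, the HSPD1 and HSPE1 chaperonin folds proteins in mitochondria, and small heat shock proteins hold unfolded clients without ATP. HSF1 is the transcription factor that induces many of these genes through heat shock elements when the cytosol is stressed, while stress of the endoplasmic reticulum (ER) induces HSPA5, HSP90B1, HYOU1 and ER-resident DNAJ proteins through other elements.

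The 250 bases before the RefSeq gene start are shown for 6 members, because the response to the constructs is set beside them below. DNAJB4 and HSPB8 are members that rose, HYOU1 and DNAJC21 are members that fell, and HSPA8 and HSPA5 are the cytosolic and ER HSP70, whose differences from EV did not pass the test. The counts of these letters over all called members follow the sequences. The sequences are from RefSeq on GRCh38.p14 and run 5′ to 3′ on the strand of the gene. They lie at chr1:78004689-78004938 (plus strand) for DNAJB4, chr12:119178681-119178930 (plus) for HSPB8, chr11:119057206-119057455 (minus) for HYOU1, chr5:34929309-34929558 (plus) for DNAJC21, chr11:123062137-123062386 (minus) for HSPA8 and chr9:125241344-125241593 (minus) for HSPA5. Capitals mark a heat shock element in DNAJB4, a heat shock element and KLF11 consensus letters in HSPB8, KLF11 consensus letters and ER stress response element II in HYOU1, KLF11 consensus letters in DNAJC21, heat shock elements in HSPA8 and the ER stress response element in HSPA5.
DNAJB4: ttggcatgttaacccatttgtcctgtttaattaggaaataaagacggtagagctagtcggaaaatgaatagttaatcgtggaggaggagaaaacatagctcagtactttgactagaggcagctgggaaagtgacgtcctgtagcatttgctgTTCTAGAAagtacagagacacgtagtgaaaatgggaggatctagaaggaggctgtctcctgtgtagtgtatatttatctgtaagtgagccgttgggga
HSPB8: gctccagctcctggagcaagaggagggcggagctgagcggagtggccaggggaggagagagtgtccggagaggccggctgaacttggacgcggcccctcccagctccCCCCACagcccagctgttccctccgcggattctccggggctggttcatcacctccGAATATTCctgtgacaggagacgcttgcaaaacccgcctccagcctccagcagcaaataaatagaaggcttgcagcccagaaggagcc
HYOU1: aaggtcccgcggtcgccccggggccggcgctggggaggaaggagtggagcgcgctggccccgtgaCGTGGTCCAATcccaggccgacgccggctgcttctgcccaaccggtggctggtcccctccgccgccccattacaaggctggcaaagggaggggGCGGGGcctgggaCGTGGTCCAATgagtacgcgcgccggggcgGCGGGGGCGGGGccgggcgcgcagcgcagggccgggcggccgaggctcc
DNAJC21: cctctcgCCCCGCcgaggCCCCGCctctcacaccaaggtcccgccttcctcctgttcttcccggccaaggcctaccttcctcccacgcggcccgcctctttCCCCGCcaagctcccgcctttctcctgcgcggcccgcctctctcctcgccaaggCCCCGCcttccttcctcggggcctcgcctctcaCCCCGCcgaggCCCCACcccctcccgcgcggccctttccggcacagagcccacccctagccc
HSPA8: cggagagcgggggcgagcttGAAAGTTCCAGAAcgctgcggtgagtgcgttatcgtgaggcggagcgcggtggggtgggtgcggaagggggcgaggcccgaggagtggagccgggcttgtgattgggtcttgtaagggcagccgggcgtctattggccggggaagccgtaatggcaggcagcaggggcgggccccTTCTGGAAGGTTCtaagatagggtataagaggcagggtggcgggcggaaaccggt
HSPA5: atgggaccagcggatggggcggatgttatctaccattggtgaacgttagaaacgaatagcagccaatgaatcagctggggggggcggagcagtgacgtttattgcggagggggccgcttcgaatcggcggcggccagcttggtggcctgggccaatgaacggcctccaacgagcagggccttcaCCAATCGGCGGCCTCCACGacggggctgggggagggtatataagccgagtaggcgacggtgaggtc

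DNAJB4 has another annotated start upstream, whose window held no match. The KLF11 consensus letters of the HSPA8 window are left in lower case. The searched letters were GAANNTTC and TTCNNGAA for inward and outward pairs of heat shock units, CCCCGC and CCCCAC for the KLF11 consensus, CCAAT and CCACG with 9 free bases between them for the ER stress response element, ATTGG and CCACG with 1 free base between them for ER stress response element II and TATAAA for a TATA box. All were searched on both strands, and the inward and outward pairs can share a unit, as they do at both places in the HSPA8 window. A window was available for 63 of the 70 members, 14 of them with several starts, which gave 82 windows. A heat shock element of either form stood in 18 member windows, or 22%, against 11.6% of all 35116 windows of the same length. The inward form stood in 17.1% of member windows against 5.78% of all, and the outward form in 13.4% against 6.62%. CCCCGC stood in 57.3% of member windows against 39.3% of all, while CCCCAC stood in 29.3% against 30.3%. The ER stress response element stood in the windows of HSPA5 and HSP90B1, which is 2.44% of member windows against 0.074% of all. Element II stood in the window of HYOU1 alone, at 2 places, which is 1.22% of member windows against 0.0513% of all. It was added to the search after the HYOU1 window had been read. TATAAA stood in 12.2% of member windows against 10.7% of all. Of the 8 members called against EV that have a window, CCCCGC stood in 5 (DNAJA4, which rose, and DNAJB14, DNAJB5, DNAJC21 and HYOU1, which fell), against 38 of all 63 members with a window. CCCCAC stood in 5 of the 8 (DNAJA4, DNAJB9 and HSPB8, which rose, and DNAJB5 and DNAJC21, which fell), against 22 of the 63. A heat shock element stood in 3 of the 8 (DNAJB4, DNAJA4 and HSPB8), against 18 of the 63. A match describes letters only, and no binding was measured here at these places.

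**Figure D1:**
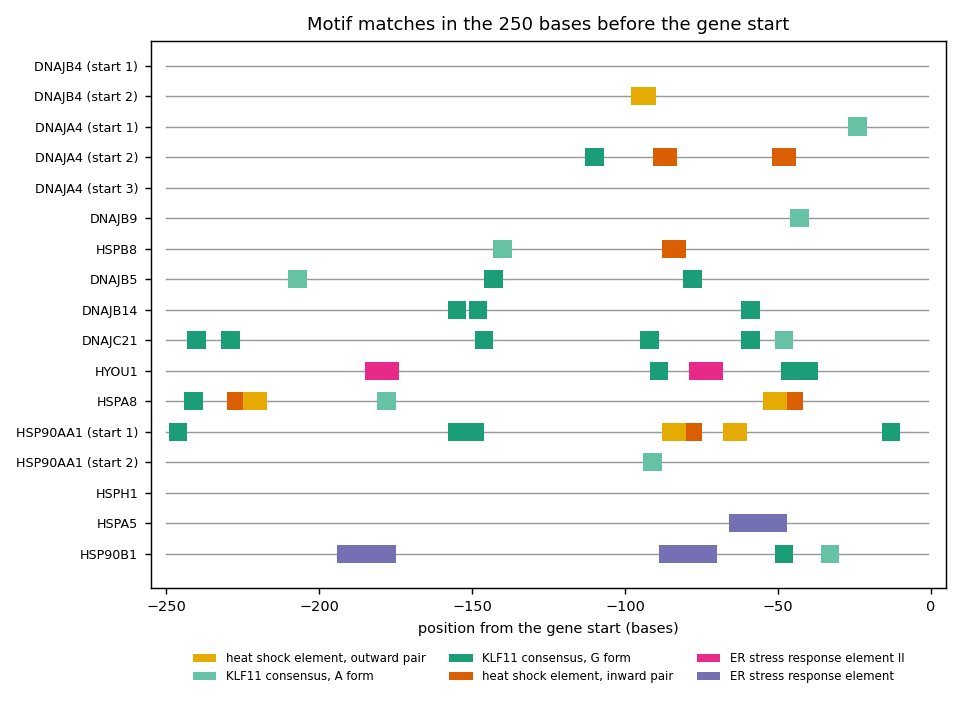
Matches to the searched letters in the 250 bases before the gene start, for the called members that have a window and for 5 landmark members. The horizontal axis gives the position in bases from the start, each row is an annotated start, and bars of 1 colour are matches of 1 motif on either strand. Heat shock elements stand at DNAJB4, DNAJA4, HSPB8, HSPA8 and HSP90AA1, CCCCGC, named the G form, stands 5 times at DNAJC21 and 3 times at HYOU1, and ER stress elements stand at HYOU1, HSPA5 and HSP90B1.

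Against EV, 8 of the 70 members were called with A347S, 5 higher and 3 lower, which is 11.4% of the members beside 8.98% of all tested clusters (3.63% higher and 5.35% lower). With Δ486, 6 were called, 4 higher and 2 lower, or 8.6% beside a background of 5.61% (2.38% higher and 3.23% lower). With EAPP, 0 members were called by limma, beside 0.00477% of all clusters. At an unadjusted p under 0.05, 8 members passed with EAPP without the fold threshold, which is 11.4% beside 8.73% of all clusters, and 1, DNAJB4, passed with it, beside 0.181% of all clusters. With wild type KLF11, 7 were called, 4 higher and 3 lower, or 10% beside 3.99% (2.21% higher and 1.78% lower). The median log2 difference of the members was -0.01 with A347S, 0.02 with Δ486, -0.01 with EAPP and 0.00 with KLF11, beside 0.008, 0.025, 0.001 and -0.020 over all tested clusters. The median size of the difference, regardless of sign, was 0.20 with A347S, 0.18 with Δ486, 0.08 with EAPP and 0.14 with KLF11. All 4 comparisons use the same EV arrays, so their values are not independent of each other. In bulk RNA, fewer cells of a kind and less RNA per cell cannot be told apart.

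Called members were few and recurred between the constructs. DNAJB4, DNAJC24, HSPB8, HYOU1 and DNAJC21 were called against EV with every construct other than EAPP. A further 5 members, DNAJA4, DNAJC1, DNAJB14, DNAJB5 and DNAJB9, were called with 1 or 2 of these constructs. For each of these 10 the difference had the same sign with A347S, Δ486 and KLF11. These comparisons share the EV arrays, and 0% of all clusters were called between these constructs. The matching overlap and common sign over all clusters were not computed, so the recurrence cannot be called particular to these members. Without the fold threshold, an adjusted p under 0.05 was reached by 25 members with A347S (35.7%, beside 28.4% of all clusters), 19 with Δ486 (27.1%, beside 22.4%), 0 with EAPP (beside 0.00477%) and 16 with KLF11 (22.9%, beside 17.3%).

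**Figure D2:**
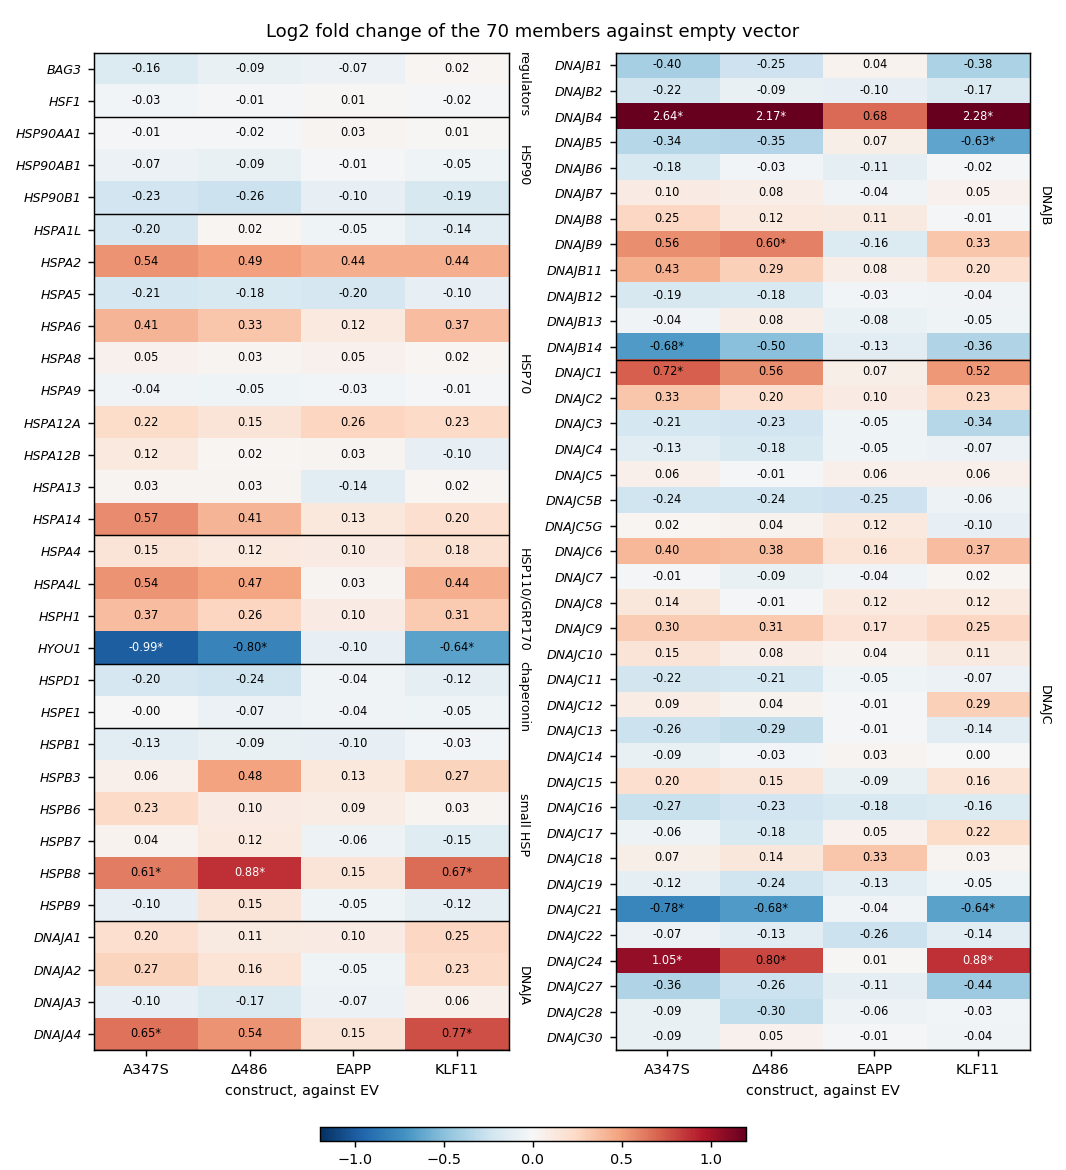
Log2 difference of each of the 70 members against EV, with A347S, Δ486, EAPP and wild type KLF11 in the columns and the members grouped by role in the rows. Red is higher and blue is lower than EV, the colour scale is limited at both ends and an asterisk marks a call at both thresholds. DNAJB4 has the largest values of the map, at 2.64, 2.17, 0.68 and 2.28, and the EAPP column has no asterisk.

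DNAJB4, a cytosolic class B J protein that partners HSP70, showed the largest difference among the members with each of the 4 constructs. Its log2 expression was 11.15 and 11.23 on the A347S arrays, 10.60 and 10.82 on the Δ486 arrays, 9.42 and 9.04 on the EAPP arrays, 10.93 and 10.72 on the KLF11 arrays, and 8.51 and 8.58 on the EV arrays. Every array of the 4 constructs lay above both EV arrays, and the EAPP arrays lay between EV and the rest. DNAJB4 rose 6.25-fold with A347S (log2 difference 2.64, SE 0.13, limma adjusted p = 9.16e-06), 4.49-fold with Δ486 (2.17, SE 0.13, adjusted p = 4.03e-05) and 4.86-fold with KLF11 (2.28, SE 0.13, adjusted p = 6.57e-05). With EAPP the difference was 0.68 (SE 0.13), with an unadjusted p of 0.000464 from limma and an adjusted p of 0.213. That call changed when limma's variance trend and robust moderation were used, which gave an adjusted p of 0.0362. DNAJB4 was the only member still called with A347S, Δ486 and KLF11 when an absolute log2 difference of 1.5 was required.

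HYOU1, also known as GRP170, is an ER chaperone and the nucleotide exchange factor of HSPA5, and it showed the largest decrease. Its values were 9.21 and 9.09 on the A347S arrays, 9.35 and 9.34 with Δ486, 9.98 and 10.11 with EAPP, 9.48 and 9.53 with KLF11, and 10.15 and 10.14 with EV. The A347S, Δ486 and KLF11 arrays all lay below the EAPP and EV arrays. HYOU1 fell by 0.99 on the log2 scale with A347S (SE 0.08, limma adjusted p = 3.72e-05), by 0.80 with Δ486 (SE 0.08, adjusted p = 0.000205) and by 0.64 with KLF11 (SE 0.08, adjusted p = 0.000841), while EAPP gave -0.10 (adjusted p = 0.789). Its promoter window, shown above, holds CCCCGC 3 times and ER stress response element II at 2 places, all on the reverse strand, and no match to the heat shock letters. The window of BAG3, which was not called, also holds CCCCGC 3 times.

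DNAJC24 is a J protein required for the synthesis of diphthamide, a modified histidine of elongation factor EEF2. It measured 8.12 and 8.31 with A347S, 7.87 and 8.08 with Δ486, 7.31 and 7.05 with EAPP, 8.11 and 7.99 with KLF11, and 7.25 and 7.09 with EV. The EAPP and EV arrays overlapped, and the other 6 arrays were higher. The increase was 2.06-fold with A347S (log2 difference 1.05, SE 0.12, limma adjusted p = 0.000191), 1.74-fold with Δ486 (0.80, adjusted p = 0.00133) and 1.84-fold with KLF11 (0.88, adjusted p = 0.00128). With EAPP it was 0.01 (adjusted p = 0.991).

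DNAJC21, whose yeast relative acts in the maturation of the large ribosomal subunit, moved the opposite way. Arrays gave 9.15 and 8.93 with A347S, 9.05 and 9.23 with Δ486, 9.78 and 9.78 with EAPP, 9.14 and 9.22 with KLF11, and 9.85 and 9.79 with EV. The A347S, Δ486 and KLF11 arrays overlapped each other and lay below every EAPP and EV array. DNAJC21 fell by 0.78 with A347S (SE 0.09, limma adjusted p = 0.000273), by 0.68 with Δ486 (adjusted p = 0.00099) and by 0.64 with KLF11 (adjusted p = 0.00202), against -0.04 with EAPP (adjusted p = 0.946). Its window carries CCCCGC 5 times and CCCCAC at a further position. A window of HSPA12A and a window of DNAJB1, neither of them called, also carry CCCCGC 5 times.

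HSPB8 was the only small heat shock protein called. It holds unfolded clients and works with BAG3 in chaperone-assisted autophagy. Values of 6.44 and 6.63 with A347S, 6.81 and 6.79 with Δ486, 6.03 and 6.11 with EAPP, 6.47 and 6.71 with KLF11, and 5.97 and 5.88 with EV were recorded. The Δ486 arrays were the highest, and all arrays of the constructs lay above EV. HSPB8 rose by 0.61 with A347S (SE 0.10, limma adjusted p = 0.00139), by 0.88 with Δ486 (SE 0.10, adjusted p = 0.000412) and by 0.67 with KLF11 (SE 0.10, adjusted p = 0.00221), and the EAPP difference was 0.15 (adjusted p = 0.747). The A347S call was lost below the fold threshold without EV array 2 (0.57), without A347S array 2 (0.51) and after quantile normalization (0.57), and the KLF11 call without KLF11 array 2 (0.55).

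Of the members called with fewer constructs, DNAJA4, a cytosolic class A J protein, measured 8.09 and 8.06 with A347S, 7.95 and 7.97 with Δ486, 7.51 and 7.64 with EAPP, 8.31 and 8.07 with KLF11, and 7.44 and 7.41 with EV. All arrays of the constructs were above EV, with the EAPP arrays nearest to it. It rose by 0.65 with A347S (SE 0.09, limma adjusted p = 0.000552) and by 0.77 with KLF11 (SE 0.09, adjusted p = 0.00072). With Δ486 the difference of 0.54 had an adjusted p of 0.00253 and fell short of the fold threshold, which it passed after cyclic loess or quantile normalization (0.59 each).

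DNAJC1 is an ER membrane J protein that also contacts ribosomes. It gave 9.10 and 9.05 with A347S, 8.88 and 8.94 with Δ486, 8.47 and 8.38 with EAPP, 8.89 and 8.85 with KLF11, and 8.24 and 8.46 with EV, so that the EAPP and EV arrays overlapped. The rise of 0.72 with A347S was called (SE 0.09, limma adjusted p = 0.000274). The differences of 0.56 with Δ486 (adjusted p = 0.00177) and 0.52 with KLF11 (adjusted p = 0.0037) were short of the fold threshold, and without EV array 2 they became 0.67 and 0.63 and were called.

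DNAJB9, a soluble ER co-chaperone of HSPA5 that is induced by ER stress, was 7.84 and 7.84 with A347S, 7.89 and 7.86 with Δ486, 7.35 and 6.88 with EAPP, 7.65 and 7.55 with KLF11, and 7.26 and 7.29 with EV. The EAPP arrays lay to both sides of the EV arrays. The rise of 0.60 with Δ486 (SE 0.13, limma adjusted p = 0.00892) was just past the fold threshold. It was lost without EV array 1 or Δ486 array 1 (0.58 each), with arrays centred on their medians (0.58) and without moderation (adjusted p = 0.058). With A347S the difference of 0.56 (adjusted p = 0.00894) was just short of it and passed after cyclic loess (0.62) or quantile normalization (0.63).

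DNAJB14 and DNAJB5 were lower. DNAJB14, an ER membrane J protein that faces the cytosol, had 8.01 and 7.60 with A347S, 8.02 and 7.95 with Δ486, 8.42 and 8.31 with EAPP, 8.21 and 8.06 with KLF11, and 8.47 and 8.51 with EV. Its fall by 0.68 with A347S (SE 0.12, limma adjusted p = 0.00238) rested on A347S array 2, without which it was -0.48 and not called. DNAJB5, a class B J protein related to DNAJB1, had 6.45 and 6.44 with A347S, 6.51 and 6.37 with Δ486, 6.86 and 6.85 with EAPP, 6.14 and 6.18 with KLF11, and 6.68 and 6.90 with EV. The KLF11 arrays were the lowest and the EAPP arrays lay within the EV range. DNAJB5 fell by 0.63 with KLF11 (SE 0.09, adjusted p = 0.00161), or by 0.52 and below the fold threshold without EV array 2.

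**Figure D3:**
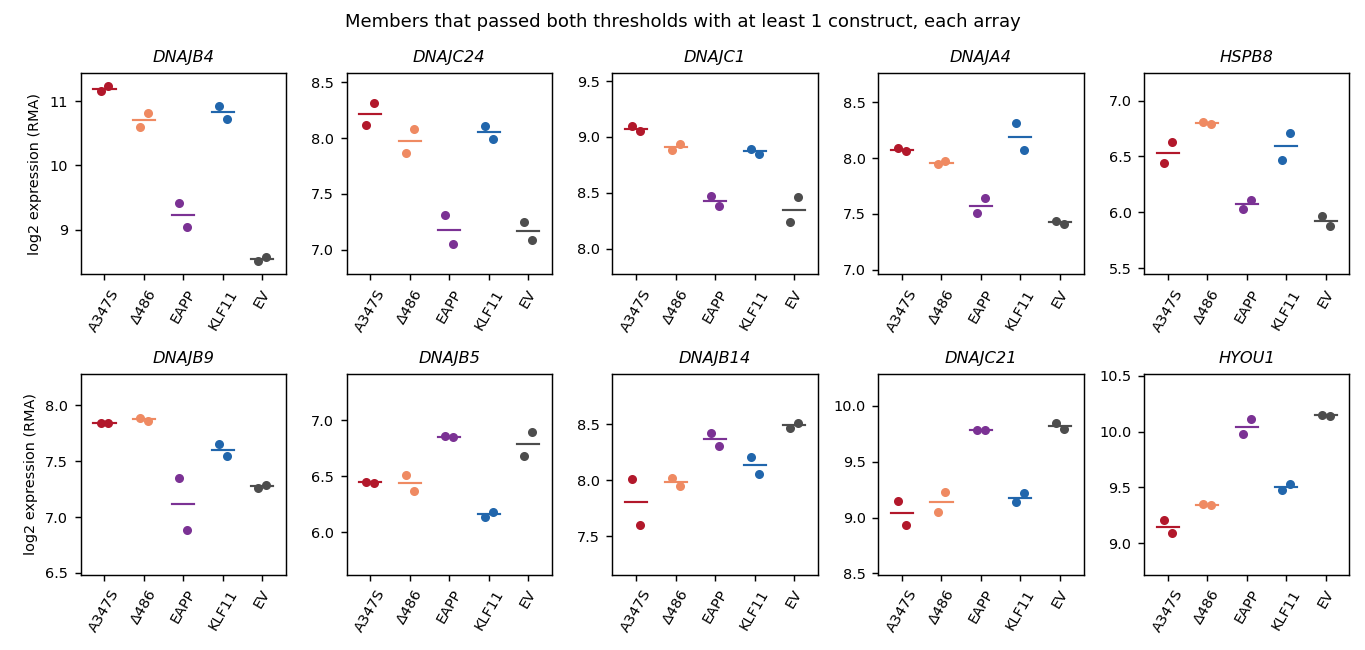
Log2 expression of the 10 members called with at least 1 construct against EV, 1 panel each. Points are single arrays, horizontal lines are group means, groups run A347S, Δ486, EAPP, KLF11 and EV from left to right, and each vertical axis covers its own range. In DNAJC24, DNAJC21 and HYOU1 the EAPP arrays sit by EV, and in DNAJB4 they sit at 9.04 and 9.42, between EV and the other constructs.

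Several landmark genes of the cytosolic heat shock response did not pass the test. HSPA1A and HSPA1B, which had no cluster with a single symbol, were not analysed and are not covered here. The paper lists them jointly among the A347S target molecules of several upstream regulators. HSPA8, the constitutive cytosolic HSP70, lay between 13.51 and 13.62 on all 10 arrays, HSP90AA1 between 12.48 and 12.56 and HSP90AB1, its constitutive paralogue, between 12.83 and 12.98. HSF1 lay between 8.59 and 8.74, with differences from EV of -0.03 with A347S, -0.01 with Δ486, 0.01 with EAPP and -0.02 with KLF11. HSPB1, the main small heat shock protein of epithelial cells, differed from EV by -0.13 to -0.03 and BAG3, the HSF1 target that links HSP70 to autophagy, by -0.16 to 0.02. None of these passed the test with any construct, with or without the fold threshold. HSPA6, the strictly heat-inducible HSP70, gave 6.82 and 7.02 with A347S, 6.71 and 6.95 with Δ486, 6.61 and 6.65 with EAPP, 6.91 and 6.84 with KLF11, and 6.19 and 6.83 with EV. The EV arrays of HSPA6 stood far apart, and its differences of 0.41, 0.33, 0.12 and 0.37 were not called (limma adjusted p = 0.12, 0.227, 0.894 and 0.201). HSPA6 depended on which EV array was kept. Without EV array 2 it was called with A347S (0.73), Δ486 (0.64) and KLF11 (0.69), while without EV array 1 its differences were 0.09 with A347S, 0.01 with Δ486, -0.20 with EAPP and 0.05 with KLF11. HSPA6 has a near-identical copy, HSPA7, so its probes may not be specific.

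In the mitochondrial group, HSPA9, the mitochondrial HSP70, lay between 12.33 and 12.42 and the co-chaperonin HSPE1 between 8.68 and 8.86, and neither passed in any comparison with EV. HSPD1, the chaperonin itself, was 12.33 and 12.20 with A347S, 12.18 and 12.29 with Δ486, 12.43 and 12.43 with EAPP, 12.37 and 12.32 with KLF11, and 12.47 and 12.47 with EV. All construct arrays were below EV, by 0.20 or 0.24 for the means of A347S or Δ486, with limma adjusted p of 0.0718 and 0.05.

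**Figure D4:**
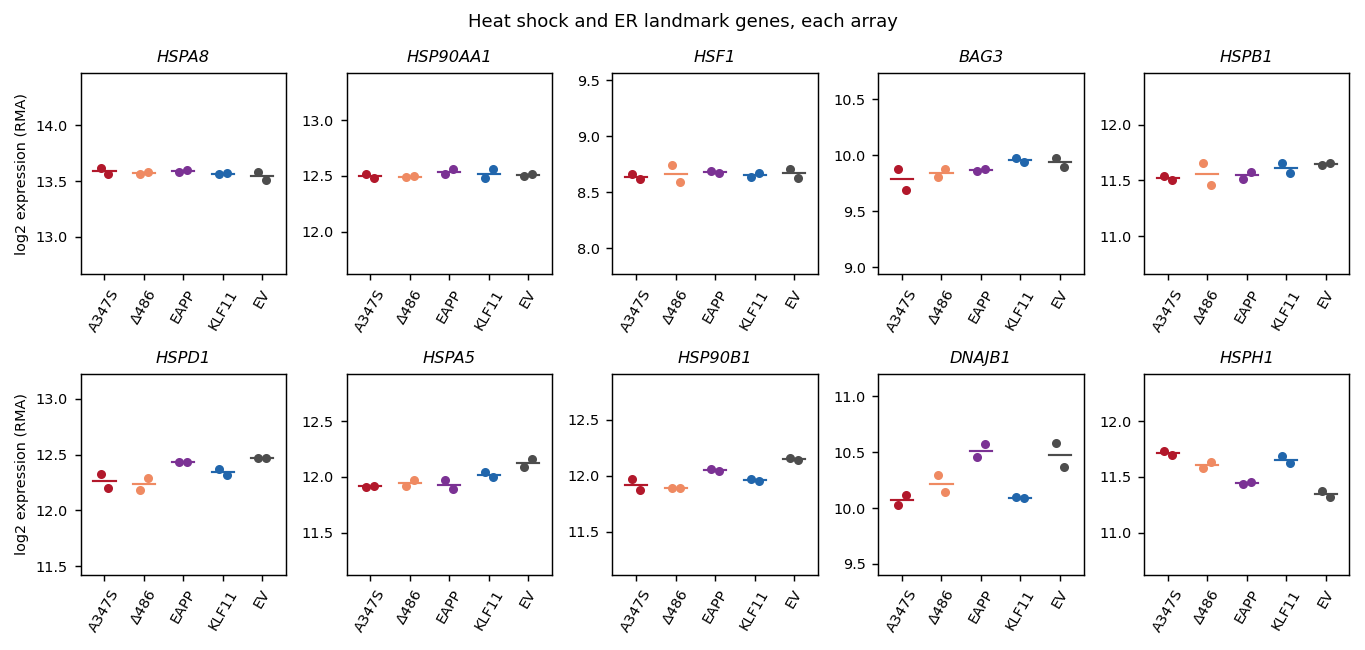
Log2 expression of 10 landmark members on each array, 1 panel each, with points for arrays and lines for group means in the order A347S, Δ486, EAPP, KLF11 and EV. All panels span the same height on the log2 scale. HSPA8, HSP90AA1 and HSF1 are level across the 5 groups, HSP90B1 lies between 11.87 and 12.16 with EV on top, and DNAJB1 and HSPH1 differ in opposite directions.

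In the HSP110 group, the cytosolic nucleotide exchange factors of HSP70, HSPA4L and HSPH1 passed the adjusted p with A347S, Δ486 and KLF11 but not the fold threshold. HSPA4L was 10.21 and 10.13 with A347S, 10.08 and 10.11 with Δ486, 9.63 and 9.66 with EAPP, 10.09 and 10.04 with KLF11, and 9.64 and 9.60 with EV. The EAPP and EV arrays overlapped, and the rest were higher, by 0.54 with A347S (SE 0.07, limma adjusted p = 0.000364), 0.47 with Δ486 (adjusted p = 0.00136) and 0.44 with KLF11 (adjusted p = 0.00277), and it passed the fold threshold with A347S after cyclic loess (0.61). HSPH1, which is heat-inducible, was higher by 0.37 with A347S (adjusted p = 0.0028), 0.26 with Δ486 (adjusted p = 0.0216) and 0.31 with KLF11 (adjusted p = 0.0132), and by 0.10 with EAPP (adjusted p = 0.746). The closely related HSPA4 differed by 0.10 to 0.18 and did not pass.

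HSP70 proteins with narrower roles also differed by less than the fold threshold. HSPA14, which with DNAJC2 forms a chaperone pair on ribosomes, was 7.96 and 8.02 with A347S, 7.79 and 7.87 with Δ486, 7.55 and 7.55 with EAPP, 7.71 and 7.53 with KLF11, and 7.49 and 7.35 with EV. The difference of 0.57 with A347S (limma adjusted p = 0.00087) lay at the threshold and passed it after either normalization (0.63 and 0.65) and without EV array 1 (0.64) or A347S array 1 (0.60). HSPA2, known from the testis, was higher by 0.54, 0.49, 0.44 and 0.44 with A347S, Δ486, EAPP and KLF11, with adjusted p of 0.00206, 0.00497, 0.24 and 0.012. The EAPP and KLF11 differences were thus equal in HSPA2, and it was called with A347S after cyclic loess or quantile normalization (0.61 each) and without EV array 1 (0.62).

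ER chaperones moved in different directions. HSPA5, the ER HSP70, was 11.91 and 11.92 with A347S, 11.92 and 11.97 with Δ486, 11.97 and 11.89 with EAPP, 12.04 and 12 with KLF11, and 12.09 and 12.16 with EV. Every construct array was below EV, yet the differences of -0.21, -0.18, -0.20 and -0.10 did not pass (limma adjusted p = 0.0546, 0.0998, 0.475 and 0.394). HSP90B1, the ER HSP90, was lower by 0.23 with A347S (adjusted p = 0.0337) and by 0.26 with Δ486 (adjusted p = 0.0246), both short of the fold threshold, and KLF11 gave -0.19 (adjusted p = 0.0891). The HSPA5 and HSP90B1 windows hold the ER stress response element, and that of HYOU1 holds element II. DNAJB11, an ER co-chaperone of HSPA5 outside the rule for named genes and chosen after its values were seen, was higher by 0.43 with A347S (adjusted p = 0.00718), beside DNAJB9 and DNAJC1 above. DNAJC3, another ER J protein outside that rule, went the other way. It was lower by 0.34 with KLF11, which passed the adjusted p but not the fold threshold. Its group means were 8.6 with A347S, 8.58 with Δ486, 8.76 with EAPP, 8.47 with KLF11 and 8.81 with EV.

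Among the remaining J proteins, DNAJB1, the main heat-inducible partner of cytosolic HSP70 and the closest landmark to DNAJB4, was 10.03 and 10.12 with A347S, 10.30 and 10.14 with Δ486, 10.46 and 10.57 with EAPP, 10.10 and 10.09 with KLF11, and 10.58 and 10.37 with EV. The EAPP and EV arrays overlapped and the others were lower, by 0.40 with A347S (limma adjusted p = 0.00949) and 0.38 with KLF11 (adjusted p = 0.0218), below the fold threshold, and by 0.25 with Δ486 (adjusted p = 0.0842). DNAJB1 thus differed from EV in the direction opposite to DNAJB4 with these constructs. The class A proteins DNAJA1 and DNAJA2, cytosolic partners of HSPA8, differed by 0.10 to 0.25 and by -0.05 to 0.27, and DNAJA2 with A347S reached an adjusted p of 0.0241. DNAJA3, the mitochondrial class A protein, did not pass.

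DNAJC proteins have J domains attached to otherwise unrelated proteins. Of the 27, 3 were called with A347S (11.1%, beside 8.98% of all clusters), 2 with Δ486 (7.4%, beside 5.61%) and 2 with KLF11 (7.4%, beside 3.99%). Several that passed the adjusted p alone fall outside the rule for named genes and were chosen after their values were seen. DNAJC6, the clathrin uncoating factor auxilin, was higher by 0.40, 0.38, 0.16 and 0.37 with A347S, Δ486, EAPP and KLF11 (limma adjusted p = 0.00159, 0.00338, 0.542 and 0.00525). DNAJC9, a histone co-chaperone, was higher by 0.30, 0.31, 0.17 and 0.25 (adjusted p = 0.00821, 0.00908, 0.524 and 0.0296). DNAJC27 was lower by 0.44 with KLF11 (adjusted p = 0.0305) and 0.36 with A347S (adjusted p = 0.0446). The 8 members below the 25th percentile of tested clusters, which was 5.47, included DNAJB7, DNAJC5B and the muscle small heat shock protein HSPB3. HSPB3 was higher by 0.48 with Δ486 (adjusted p = 0.0365) at levels between 4.48 and 5.16. The other 62 members lay above that percentile, which is a rank and not a limit of detection. The called members HSPB8 (5.88 to 6.81) and DNAJB5 (6.14 to 6.9) were at levels near that of the pancreatic acinar marker CELA3A (6.06 to 6.58). A second cluster of DNAJC19 differed from EV by at most 0.01 with any construct, while its brightest cluster differed by -0.24 to -0.05 without passing, and the clusters of HSPA1L held identical values.

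The mean differences between constructs do not involve the EV arrays, although these arrays enter the estimate of the spread behind the p-values. EAPP against KLF11 called 5 members, or 7.1% beside 2.51% of all clusters. DNAJB4 was lower with EAPP by 1.60 on the log2 scale (SE 0.13, limma adjusted p = 0.000375), DNAJC24 by 0.87 (adjusted p = 0.00222) and DNAJA4 by 0.62 (adjusted p = 0.00317). DNAJB5 was higher with EAPP by 0.70 (adjusted p = 0.00177) and DNAJC21 by 0.60 (adjusted p = 0.00425). A347S against EAPP called 6 members, or 8.6% beside 6.01%, which were DNAJB4 (1.96), DNAJC24 (1.03), DNAJB9 (0.72), DNAJC1 (0.65), DNAJC21 (-0.74) and HYOU1 (-0.89). Δ486 against EAPP also called 6, or 8.6% beside 3.26%, which were DNAJB4 (1.48), DNAJC24 (0.79), DNAJB9 (0.76), HSPB8 (0.73), DNAJC21 (-0.65) and HYOU1 (-0.70). Without the fold threshold, an adjusted p under 0.05 was reached by 12 members for EAPP against KLF11 (17.1%, beside 10.8% of all clusters), 18 for A347S against EAPP (25.7%, beside 23.4%) and 11 for Δ486 against EAPP (15.7%, beside 15%). These comparisons share the EAPP arrays.

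**Figure D5:**
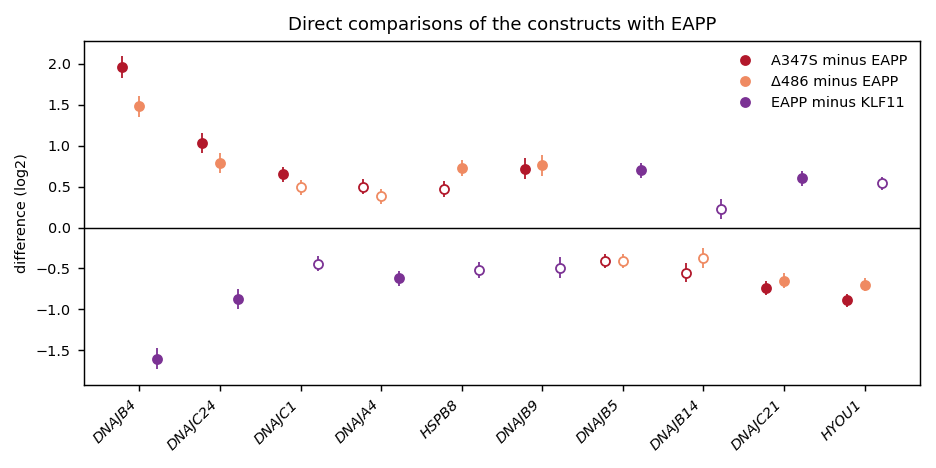
Log2 differences between constructs for the 10 members called against EV, as A347S minus EAPP, Δ486 minus EAPP and EAPP minus KLF11. Bars are the standard error from limma, filled points passed both thresholds and open points did not. DNAJB4 has the largest difference in each comparison, at 1.96, 1.48 and -1.60.

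A347S against KLF11, Δ486 against KLF11 and A347S against Δ486 each called 0 members by limma, beside 0% of all clusters. At an unadjusted p under 0.05 without the fold threshold, 10, 6 and 4 members passed in these comparisons, beside 14.4%, 10.5% and 7.43% of all clusters. The differences of DNAJB4 were 0.36 for A347S against KLF11 (SE 0.13, limma adjusted p = 0.268), -0.11 for Δ486 against KLF11 (adjusted p = 0.771) and 0.48 for A347S against Δ486 (adjusted p = 0.642). HYOU1 differed by -0.36 between A347S and KLF11 (SE 0.08, adjusted p = 0.169). DNAJB5 was 0.29 above KLF11 with both A347S and Δ486 (SE 0.09, adjusted p = 0.22 and 0.392). A call against EV with some of these constructs and not with others was therefore no called difference between them.

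Set beside the mean difference of A347S, Δ486 and KLF11 from EV, EAPP reached 29.0% of it in DNAJB4, 24.9% in DNAJB14, 23.6% in DNAJA4, 20.1% in HSPB8, 12.4% in DNAJC1, 12.1% in HYOU1, 5.2% in DNAJC21 and 1.2% in DNAJC24. In DNAJB5 and DNAJB9 the EAPP difference had the opposite sign, at -15.5% and -32.0%, but the sign changed when 1 array was left out, to -0.04 in DNAJB5 without EV array 1 and to 0.08 in DNAJB9 without EAPP array 2. These percentages are descriptions of means over 2 arrays. They cover only members called with A347S, Δ486 or KLF11 and none called with EAPP, a choice that favours low percentages. HSPA2, in which the EAPP and KLF11 differences were equal, was not called and is not among them. The EAPP and other differences share the EV arrays, and no such percentage was computed over all clusters.

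Other protein folding genes were read from lists of cytosolic chaperonin, prefoldin, HSP90 co-chaperones, HSP70 nucleotide exchange factors, mitochondrial folding and proteolysis genes and further HSF1 targets. Of the 53 with a cluster of 1 symbol, 1 was called with A347S, which is 1.89% beside the background of 8.98%, and 0 with Δ486, EAPP or KLF11, beside 5.61%, 0.00477% and 3.99%. At an unadjusted limma p under 0.05 without the fold threshold, 20 passed with A347S (37.7%, beside 37.6% of all clusters), 19 with Δ486 (35.8%, beside 34.3%), 2 with EAPP (3.77%, beside 8.73%) and 16 with KLF11 (30.2%, beside 29.4%). With the adjusted p alone as the criterion, 17 passed with A347S, 15 with Δ486, 0 with EAPP and 8 with KLF11, or 32.1%, 28.3%, 0% and 15.1%, beside the 28.4%, 22.4%, 0.00477% and 17.3% given above. The called gene was BAG1, an exchange factor of HSP70, higher by 0.59 with A347S (SE 0.08, adjusted p = 0.000585), 0.51 with Δ486 (adjusted p = 0.0022) and 0.52 with KLF11 (adjusted p = 0.00293). Without EV array 2, the count with A347S was 0. The median difference of the 53 was 0.01 with A347S, 0.00 with Δ486, -0.01 with EAPP and 0.03 with KLF11.

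As checks of the arrays, the cluster of KLF11 itself stood at 8.85 and 8.88 on the A347S arrays, 8.72 and 8.83 on the Δ486 arrays, 8.78 and 8.68 on the EAPP arrays, 8.82 and 8.85 on the KLF11 arrays, and 8.37 and 7.75 on the EV arrays, and the EV arrays stood apart from each other. The KLF11 cluster was higher by 0.67 to 0.81 in the constructs, with a limma adjusted p of 0.282 with EAPP and calls with the others. The EAPP difference of 0.67 was near the Δ486 difference of 0.71, with unadjusted limma p of 0.00204 and 0.00137. It was not called between EAPP and any other construct. By Western blot, the paper reports similar overexpression of the wild type and mutant proteins. The arrays of a group correlated at 0.996 to 0.997, and 3 arrays correlated better with an array of another group. Of 6 duct epithelium markers, KRT8 (12.18 to 12.71) and KRT18 (12.81 to 13.25) were bright on all arrays, EPCAM lay between 8.32 and 8.78, KRT7 between 6.28 and 6.52 and CDH1 between 4.71 and 5.12. The duct keratin KRT19 fell by 1.51 on the log2 scale with A347S (limma adjusted p = 6.14e-05), by 1.06 with Δ486 (adjusted p = 0.000601) and by 0.99 with KLF11 (adjusted p = 0.00124), and EAPP gave -0.44 (adjusted p = 0.387). KRT8 was lower with A347S (-0.43, adjusted p = 0.00584) and Δ486 (-0.33, adjusted p = 0.0257), and KRT18 likewise (-0.25, adjusted p = 0.0446, and -0.35, adjusted p = 0.0129), short of the fold threshold. With KLF11 the differences were -0.28 in KRT8 (adjusted p = 0.0648) and -0.22 in KRT18 (adjusted p = 0.108). KRT7, EPCAM and CDH1 did not pass with any construct. The acinar markers were PRSS1 (4.85 to 5.22), CPA1 (5.78 to 6.17) and CELA3A (6.06 to 6.58), and the islet markers GCG (3.74 to 4.03) and SST (5.54 to 5.96). The range of CELA3A thus took in that of the duct marker KRT7, and CDH1 was dimmer than CPA1, CELA3A and SST. The leukocyte markers PTPRC and CD3E lay between 3.44 and 5.09 and the endothelial markers PECAM1 and CDH5 between 4.56 and 5.62. The part of the keratin decreases in the results above was not tested.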

How the data were processed

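The authors hybridized RNA from Panc1 cells to Human Gene 1.0 ST arrays, and processed the intensities by Robust Multiarray Analysis, which removes background and puts the arrays on a common scale. The submitters' processing notes name Partek 6.6. The deposited values are these log2 expression values, one per transcript cluster and array, and the genome build behind the cluster annotation was not given in the sources used here. Of 28869 clusters, 7908 without a symbol were left out and 20961 were tested, of which 1732 with several symbols were never named. Gene names were checked against RefSeq by gene number, which matched all 70 members and changed 0 names. The genomic position of the clusters was not checked, so whether a cluster, such as either of DNAJC19, lies at its gene or at a copy elsewhere is not known.

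All 10 arrays entered 1 limma 3.58.1 model (R 4.3.3) that gave each of the 5 groups its own mean, leaving 5 residual degrees of freedom and adding 4.54 from moderation. The median standard error of a difference from EV was 0.0954. Adjusted p-values were computed over all tested clusters. Named genes were those called in any comparison, the 3 members with the largest change in each role group, and fixed landmarks. The members, lists and rules were chosen with earlier results of these data known. Promoter windows were taken from RefSeq. The fit was tested on simulated data with 200 clusters changed in each construct. Against EV, 31.5% to 36% of these were called when the change was 1.5-fold, and 91.5% to 94.5% when it was 2-fold. Changes near 1.5-fold can therefore go uncalled. Alternatives covered the thresholds, the test, scaling between arrays, dim clusters, the cluster for a gene, a replicate block and each array left out. Figures were drawn with matplotlib 3.10.9.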

Additional observations from a re-analysis of the deposited data

How the results depend on the processing

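With 2 arrays a group, the counts depended most on the threshold and the test. Without the fold threshold, 25 members were called with A347S, 19 with Δ486 and 16 with KLF11 against EV, 12 for EAPP against KLF11, 18 for A347S against EAPP and 11 for Δ486 against EAPP, with the shares of all clusters given beside these counts in the comparisons. At an absolute log2 difference of 1.5 the counts were 1, 1 and 1 against EV, 1 for EAPP against KLF11, 1 for A347S against EAPP and 0 for Δ486 against EAPP. A plain t-test on the same values with Benjamini-Hochberg adjustment, without the Bayes correction that the methods add to their t-test, called 0 in all 10 comparisons. The moderated test on the arrays of only the groups compared called the same numbers as the model over all arrays. The cause of the lower counts of the plain t-test was not tested. For EAPP against EV, the unadjusted p with the fold threshold and the variance trend with robust moderation each called 1 member, DNAJB4. Cyclic loess between arrays called 12 members with A347S, 9 higher and 3 lower, beside 5 higher and 3 lower in the values as deposited. No called value changed sign. Of the 124 differences of named members from EV, 27 that were not called changed sign under at least 1 alternative, none of them over 0.16 in size as deposited, HSPA6 with EAPP (0.12, and -0.20 without EV array 1) among them. With 1 array left out, the counts against EV ran from 6 to 10 with A347S, 5 to 8 with Δ486, 0 to 0 with EAPP and 6 to 8 with KLF11, from 4 to 6 for EAPP against KLF11, 6 to 7 for A347S against EAPP and 5 to 6 for Δ486 against EAPP, and stayed at 0 in the other 3 comparisons. A lone array is then assumed to vary like the other groups. Shares of all clusters are not given here for the log2 difference of 1.5, the plain t-test, cyclic loess or a left-out array. Counts under these alternatives therefore describe the listed genes alone and cannot be set beside the whole array. Of the other folding genes, for which these alternatives were chosen after seeing the data, 17, 15, 0 and 8 were called with A347S, Δ486, EAPP and KLF11 without the fold threshold (28.4%, 22.4%, 0.00477% and 17.3% of all clusters), 0 with A347S at a log2 difference of 1.5 or by the plain t-test, 2 with A347S after cyclic loess, and 0 to 2 with A347S with an array left out. The replicate block called the same number as without it, 8, 6, 0 and 7 members against EV, and changed no call of a named member. Equal replicate numbers deviated with correlations from -0.348 to 0.145, and the main model used no replicate block. A factor shared by arrays of unlike replicate numbers was not tested.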
